A study of Rattus norvegicus with 6 samples.

Results

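The late-numbered rat microRNAs (miRNAs) are those whose name carries a number of 3000 or above. They were chosen by name alone, from miR-3064 to miR-7578, with 3 names of that range left out, which gave 108 of the 758 miRNAs on the array. Left ventricular heart muscle came from male Wistar rats that had eaten either normal chow (3 samples) or a high-fat diet (3 samples) over 20 weeks, and the sample titles call the latter group obesity. Total RNA of each sample was labelled with the dye Cy3 and hybridised to 1 array. The labels name no genetic change, no further treatment and no age, and do not say whether the samples of a diet are separate animals, so p-values measure only the spread between these samples, which may be technical.

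A miRNA is cut from a hairpin-shaped precursor, loaded into an Argonaute protein and guided to messenger RNAs mainly by its seed, bases 2 to 8 from its 5′ end. Either arm of the hairpin can yield a mature strand, called 5p or 3p. Numbers were assigned in order of registration, so that the classical muscle miRNAs carry low numbers, while late numbers mostly came from deep sequencing. A number of late-numbered rat miRNAs are read from the strand opposite to that of an older miRNA gene, which makes their sequences almost the reverse complement of the older miRNA.

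RefSeq (GRCr8) gave a mature sequence for 96 of the 108, including 42 of the 44 that entered the diet comparison. The sequences below are written 5′ to 3′ with the seed in capitals. The first set holds the 4 late-numbered miRNAs with the brightest probes, at chr3:65165595-65165617 (minus strand, in no annotated protein-coding gene), chr5:157133953-157133972 (minus strand, opposite Iffo2), chr10:105848002-105848023 (minus strand, in Cep131, same strand) and chr13:42051730-42051751 (plus strand, opposite Zranb3).
miR-6216: gAUACACAgaggcaggaggagaa
miR-6215: uUUAGGGUugcagagccagg
miR-3562: uUGGGGCAguggcuggauggga
miR-3473: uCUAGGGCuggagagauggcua

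The second set holds strands with small p-values in the diet comparison (miR-3084a, miR-3573, miR-6328 and miR-6316), miR-3084c-5p because it is nearly identical to 1 of the listed miR-3084a-5p sequences, and miR-423-5p because it shares a seed with miR-3573-5p. Both strands of miR-3573 lie in Efnb1, the gene of the membrane ligand ephrin-B1 (5p at chrX:68299280-68299301, 3p at chrX:68299322-68299344, plus strand, the strand of the gene). RefSeq places miR-3084a at 2 loci, in Nemf on chromosome 6 (5p at chr6:93551164-93551185, minus strand) and in Sf3b3 on chromosome 19 (5p at chr19:55718577-55718598, minus strand), with the same 3p strand and different 5p strands. miR-6328 is at chr20:2890159-2890179 (plus strand, opposite Ppp1r18) and miR-6316 at chr1:266506363-266506385 (plus strand, in no annotated protein-coding gene).
miR-3084a-5p, chromosome 6: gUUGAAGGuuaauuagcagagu
miR-3084a-5p, chromosome 19: uUGAAGGUucauuagcagagua
miR-3084c-5p: gUUGAAGGuuaauuagcagag
miR-3084a-3p: uUCUGCCAguccccuucagaca
miR-3573-5p: uGAGGGGCagugauagaaagga
miR-423-5p: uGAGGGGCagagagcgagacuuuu
miR-3573-3p: uUCCUAACucugcccccucccau
miR-6328: aGGCCUGCucugagcccccgc
miR-6316: cAUGUCUGucucuguggcacaca

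The third set holds late-numbered miRNAs beside the older miRNA of the opposite strand, and miR-3558-3p, which was seen on high-fat arrays only. miR-3571 is at chr18:2160340-2160362 (plus strand) and miR-1-3p at chr18:2160339-2160360 (minus strand), miR-3546 at chr15:32395601-32395622 (plus strand) and miR-208a-5p at chr15:32395599-32395620 (minus strand), miR-3596c at chr1:67350243-67350263 (minus strand) and let-7e-5p at chr1:67350243-67350264 (plus strand), and miR-3558-3p at chr6:12935330-12935349 (minus strand, in Ttc7a).
miR-3571: uACACACUucuuuacauuccaua
miR-1-3p: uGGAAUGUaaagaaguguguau
miR-3546: aUAACCCGggccaaaagcucac
miR-208a-5p: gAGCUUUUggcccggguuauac
miR-3596c: aCUAUACAaccuccuaccuca
let-7e-5p: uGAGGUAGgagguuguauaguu
miR-3558-3p: aCUGUGGAggguuucuaugu

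Each array carried 12128 spots, none of them saturated, and the 75th percentile of probe signal used for scaling was 359, 424 and 376 with chow and 415, 532 and 561 with high-fat diet. High-fat replicates 2 and 3 were therefore the brightest arrays. The first slide held chow replicate 1 and all high-fat samples, and the second slide chow replicates 2 and 3. The stringency ratio, a control value that the software reports per array, was 3.82, 4.19 and 3.44 with chow. With high-fat diet it was 1.94, 0.974 and 1.55, so that it separated the diets, also within the first slide. Its part in the detections and diet differences below was not tested. All 4 heart muscle markers (miR-1-3p, miR-133a-3p, miR-208a-3p and miR-499-5p) were detected on every array. The summed scaled signal of 6 blood and immune markers ranged from 25.3 to 26.5 on chow and from 29.9 to 34.9 on high-fat arrays. That of 4 epithelial markers ranged from 0.139 to 0.477 and from 0.444 to 0.455, with miR-200a-3p and miR-200b-3p on 1 array each, and that of the heart muscle markers from 211 to 216 and from 167 to 200. The part of these markers in the values of the late-numbered miRNAs was not tested.

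A miRNA counted as detected on an array when the software rated 50% or more of the spots of its brightest probe as well above background, and entered the diet comparison when it was detected on 3 or more arrays. Of the late-numbered miRNAs, 44 of 108 (40.7%) did so, against 381 of 650 other miRNAs (58.6%) and 56.1% of the whole array. Few miRNAs lay between detection on all arrays and on none, among the late-numbered as among the others. Detection held on all 6 arrays for 42 late-numbered miRNAs, on 5 arrays for miR-3549 and miR-3594-5p, on 1 or 2 arrays for 10, and on none for 54. Among the 650 others it held on all 6 arrays for 336 (51.7%) and on at least 1 array for 424 (65.2%). These shares are descriptions without a test.

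Detection was highest for the lowest numbers, let-7 miRNAs and the 3 omitted names left aside. It was 76.0% of the 104 miRNAs numbered below 100, 57.1% of 217 from there to below 300, 54.7% of 170 to below 500, 48.2% of 112 to below 1000 and 55.6% of 27 to below 3000. The late numbers had the lowest share of these bands, although the small band just before them did not continue the fall. Within the late-numbered miRNAs the share was uneven, with 13 of 19 detected for numbers below 3500, 19 of 64 from 3500 to below 3600, 2 of 4 from 5000 to below 6300 and 10 of 21 from 6300 on.

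**Figure D1:**
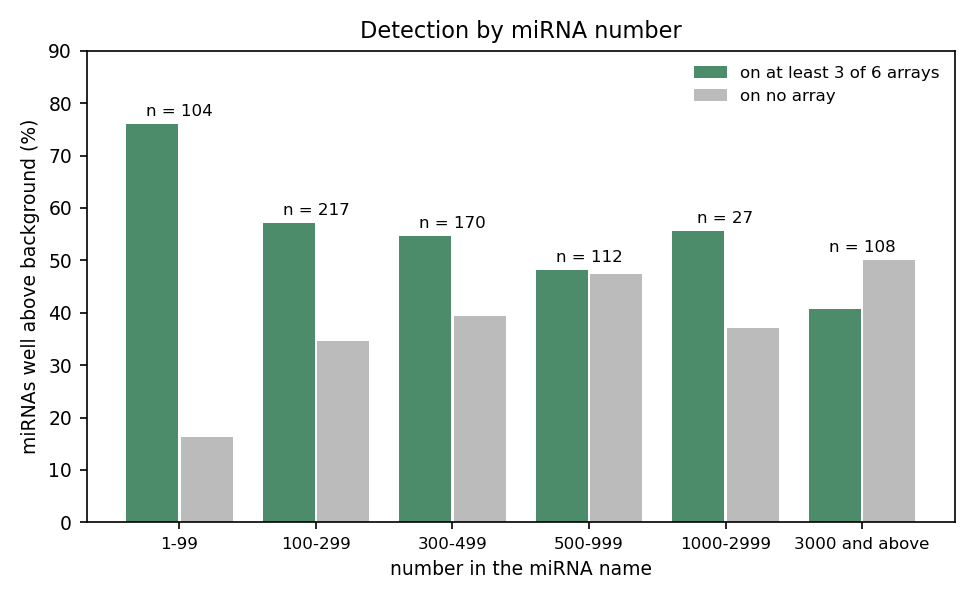
Share of miRNAs (vertical axis, %) detected on at least 3 of 6 arrays (green) or on no array (grey), by the number in the miRNA name (horizontal axis), with the number of miRNAs above each pair of bars. The green bar is highest for numbers below 100 (76.0%) and lowest for 3000 and above (40.7%), where the grey bar reaches 50%.

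On single arrays, 43, 44 and 43 late-numbered miRNAs were detected with chow, and 44, 52 and 54 with high-fat diet. The extra detections lay on high-fat replicates 2 and 3, where the other miRNAs were also detected more often, at 402 and 417 against 345 to 374 on the remaining arrays. Whether this follows the brightness of those arrays or the diet cannot be told apart.

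Detection was uneven between classes of genome position, which were formed after the values were seen. Of the 69 placed outside any hairpin of the opposite strand, 37 (53.6%) were detected on 3 or more arrays. Of the 27 that lie opposite another miRNA hairpin, 5 were (18.5%), namely miR-3065-3p, miR-3074, miR-3120, miR-3546 and miR-3549. The 6 opposite hairpins of the chromosome 6 cluster of imprinted miRNAs were never detected on more than 1 array. Of the 12 without an entry in the table, miR-3568 and miR-6318 entered the comparison.

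In 26 of these opposite-strand pairs the late-numbered strand and a mature strand of the older miRNA overlapped by 15 bases or more. Among the 22 late-numbered strands of these pairs that missed the comparison, 12 faced a miRNA detected on all 6 arrays, 9 of these with a mean log2 signal on chow above 0, the scaling value of the array. miR-3571 was on none of 6 arrays, while miR-1-3p, the main miRNA of striated muscle, with which it overlaps by 21 bases, had a log2 signal of 7.06 ± 0.04 on chow and 6.84 ± 0.16 on high-fat diet (SD, n = 3 each). The same held on the strand opposite the miR-29 family, known to repress collagen genes. Neither miR-3556a, miR-3556b nor miR-3587 was detected on any array, opposite miR-29a-3p (6.39 on chow), miR-29c-3p (5.71) and miR-29b-3p (6.22).

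Opposite the let-7 family, known from developmental timing and differentiation, miR-3596a, miR-3596b and miR-3596d were undetected on all arrays. Their partners let-7a-5p, let-7d-5p and let-7f-5p had chow means of 6.39, 4.90 and 6.55. miR-3596c, opposite let-7e-5p (2.33 ± 0.07 on chow, 2.38 ± 0.09 on high-fat diet), was the only one of the 4 seen at all, on 2 high-fat arrays. Not every one of the 22 faced a bright strand: 6 faced a strand that was on no array, among them miR-3591 opposite miR-122-5p, the main miRNA of liver.

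The exceptions were dim. miR-3546 lies opposite miR-208a inside Myh6, the gene of the cardiac alpha myosin heavy chain, and overlaps miR-208a-5p by 20 bases. Its log2 signal was -3.55, -3.17 and -4.04 on chow against -3.82, -3.07 and -3.54 on high-fat diet, so that the diets overlapped and the replicates of a diet lay far apart. The other probe of miR-3546 was detected on only 1 array and stayed at the floor. miR-208a-5p had means of -1.70 and -1.82. miR-3074, at -4.64 ± 0.18 and -4.69 ± 0.09, was detected on all arrays although miR-24-1-5p, with which it overlaps by 20 bases, was on none. miR-3065-3p (-3.40 ± 0.13 and -3.46 ± 0.11) faced miR-338-5p (1.34 and 1.15), whereas miR-3065-5p was on no array and faced miR-338-3p (-0.10 and 0.35). miR-3120, which lies in the dynamin gene Dnm3 opposite miR-214 and overlaps miR-214-5p by only 1 base, had -3.20 ± 0.17 and -3.29 ± 0.05.

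**Figure D2:**
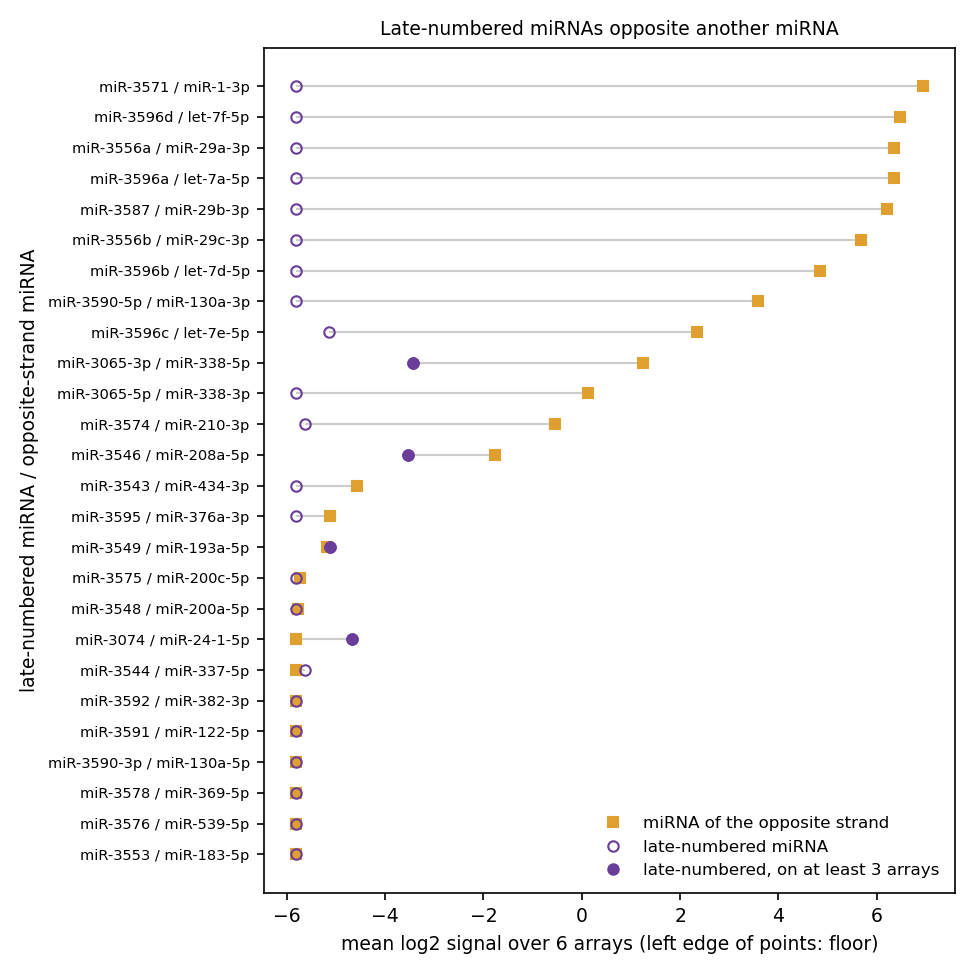
Mean log2 signal over 6 arrays, relative to the 75th percentile of each array (horizontal axis), of late-numbered miRNAs (circles, filled where detected on at least 3 arrays) and of the miRNA on the opposite strand (squares), for the 26 pairs that overlap by 15 bases or more. Most circles stay at the floor of -5.82 while squares reach above 6, and the brightness of different probes does not rank abundance.

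Among the late-numbered miRNAs compared, log2 signal ranged from -5.15 to 1.91 with a median of -3.36, and from -5.53 to 7.59 with a median of -2.20 among the others. Probe brightness depends on the probe as well as on the miRNA, so these ranges describe signal and give no order of abundance. A log2 signal above 0 was reached by 2 of 44 late-numbered miRNAs and by 103 of 381 others (27.0%). The spread between replicates was no wider than elsewhere, with a median SD within diets of 0.152 against 0.163 in the others. Arrays correlated at 0.972 to 0.993 over the 44, and at 0.990 to 0.996 over all 425 compared.

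The brightest, miR-6216, had log2 signals of 2.15, 2.01 and 2.16 on chow against 2.05, 1.67 and 1.38 on high-fat diet. High-fat replicate 1 overlapped the chow arrays, and limma gave a difference of -0.41 ± 0.17 (SE) with an adjusted p of 0.412. It was -0.25 without high-fat replicate 3, -0.042 without scaling and -0.060 without the 2 brightest arrays, which leaves high-fat replicate 1 alone on that diet. miR-6215 had 1.20, 1.48 and 0.84 on chow against 0.94, 1.17 and 1.57 on high-fat diet, groups that overlapped throughout. miR-3562, in the centrosome gene Cep131, had -0.053 ± 0.10 on chow and -0.18 ± 0.05 on high-fat diet. miR-3473 (-0.61, -0.83 and -1.11 against -0.98, -0.62 and -0.94) showed no separation of the diets.

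The next brightest, miR-3561-5p, miR-3593-3p, miR-3084a-3p, miR-3573-3p and miR-3068-3p, had means from -1.18 to -1.08, and miR-6328 followed at -1.60. RefSeq lists the miR-3068 hairpin under the small nucleolar RNA gene Snora58, inside Alkbh1 on the same strand. Its 3p strand varied little, at -1.09, -1.19 and -1.19 on chow against -1.08, -1.23 and -1.28 on high-fat diet. The dimmest compared were miR-3594-5p (mean -5.15) and miR-6316 (mean -5.14), both close to the floor.

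**Figure D3:**
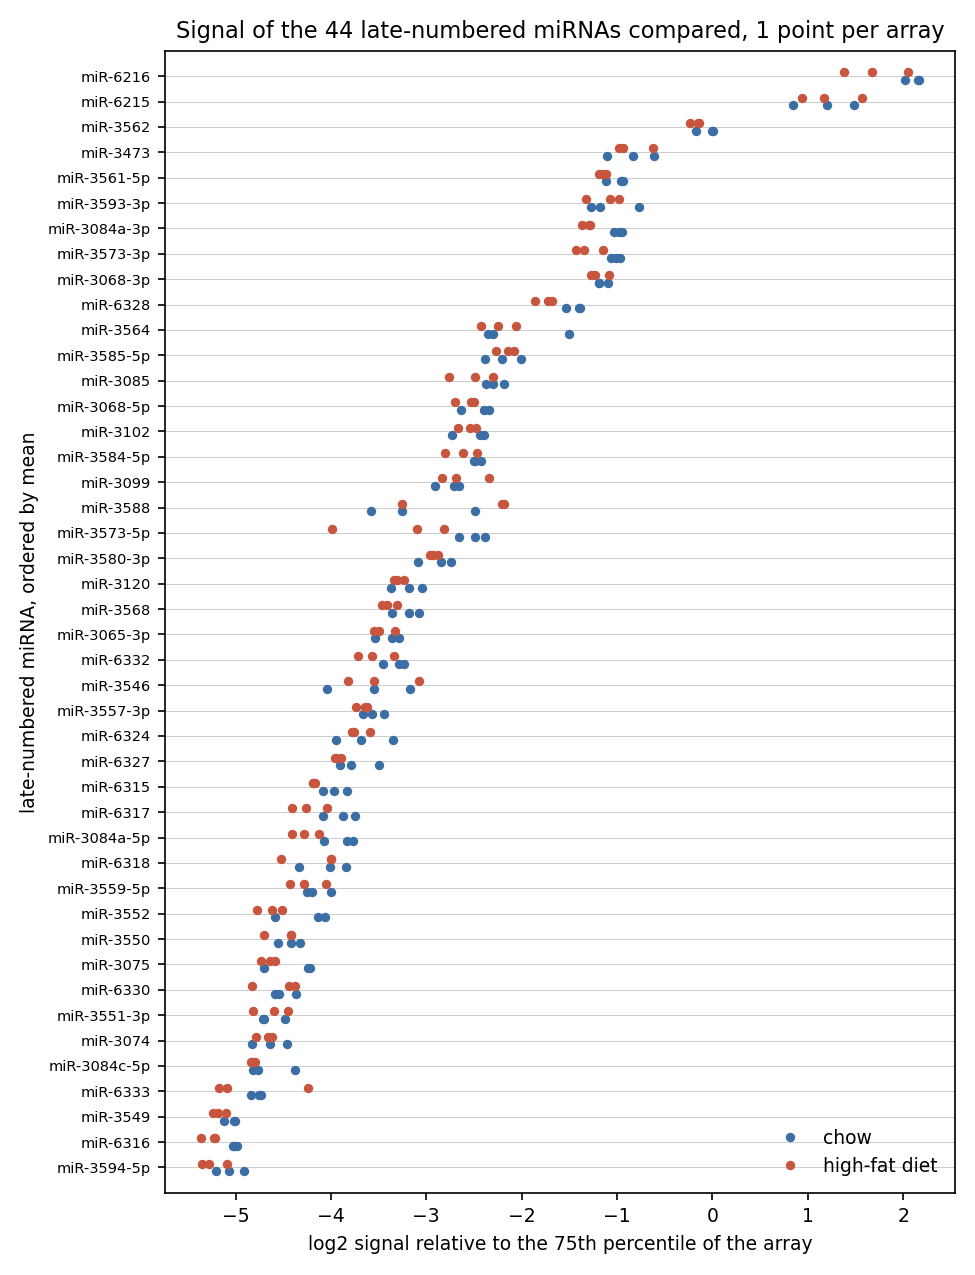
Log2 signal relative to the 75th percentile of each array (horizontal axis) for the 44 late-numbered miRNAs compared (vertical axis, ordered by mean), with 1 point per array, chow in blue and high-fat diet in red. miR-6216 and miR-6215 have the highest means (1.91 and 1.20), most others lie below -2, and for most of them the colours overlap.

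The array carried both strands of 20 late-numbered hairpins. Both strands entered the comparison for 3 hairpins (miR-3068, miR-3084a and miR-3573), 1 strand for 11 and none for 6. The strand compared was 3p for miR-3065, miR-3551, miR-3557, miR-3580 and miR-3593, and 5p for miR-3084c, miR-3559, miR-3561, miR-3584, miR-3585 and miR-3594. In each of the 3 hairpins with both strands, both had a negative diet difference after scaling, which turned positive without scaling for both strands of miR-3068 and for the 3p strands of miR-3084a and miR-3573.

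The diet comparison called none of the 44 late-numbered miRNAs at an adjusted p of 0.05 (limma with Benjamini-Hochberg adjustment over all 425 miRNAs compared), where the whole array had 2 calls (0.471%), and 0 with the slide as a block. Unadjusted p-values below 0.05 were reached by 9 of the 44 (20.5%), all lower on high-fat diet, against 7.53% lower and 4.24% higher over the whole array. Without scaling 0 of the 44 were lower and 2 higher at that threshold, and over the whole array 2 were lower and 93 higher. Counting the lower ones, the 9 (whole array 32) became 22 with normexp (whole array 116) and 19 with the software total signal (79). It was 5 with the slide as a block (29) or with outlier spots kept (19), and 3 with a floor 4 times higher (20). The count was 2 without chow replicate 1 (14), 4 without chow replicate 2 (30) and 4 without high-fat replicate 1 (32). Arrays of the diets did not overlap for 7 (15.9%), again all lower, against a background of 10.6% lower and 6.59% higher, but without scaling 0 were lower and 1 was higher, with 1 lower and 103 higher over the whole array. That count of 7 was 19 without chow replicate 3, where the whole array had 104 lower and 43 higher. Without high-fat replicate 1 it was 15, 14 of them lower (whole array 78 lower, 58 higher), and 13 without high-fat replicate 3 (68 lower, 39 higher). The 2 calls of the whole array became 0 without chow replicate 2 or 3 or without high-fat replicate 2 or 3, and 1 without high-fat replicate 1. The lowest limma adjusted p among the 44 was 0.224.

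The differences were small and mostly of one sign. The median log2 difference, high-fat diet minus chow, was -0.12 (interquartile range -0.22 to -0.05) in the late-numbered miRNAs, -0.03 (-0.14 to 0.09) in the others and -0.04 over all. After scaling the difference was below 0 for 37 of 44 (84.1%), against 221 of 381 others (58.0%) and 60.7% of the whole array, while without scaling the median of all miRNAs moved to 0.32, and 4 of 44 late-numbered and 15 of 381 others lay below 0. Below a log2 signal of -4 the scaled difference was negative for 15 of 16 late-numbered and 54 of 99 other miRNAs. Between -4 and -3 this held for 7 of 8 and 27 of 51, between -3 and -2 for 7 of 10 and 30 of 49, between -2 and 0 for 7 of 8 and 44 of 79, and above 0, where the order was the other way, for 1 of 2 and 66 of 103.

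The differences were smaller than 0.2 for 29 of 44. They were smaller than the SD within diets of the same miRNA for 23 of 44, against 225 of 381 others. Within slide 1, which held 1 chow array, the median was -0.18 in the late-numbered miRNAs and -0.07 in the others, with 36 of 44 and 228 of 381 below 0.

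**Figure D4:**
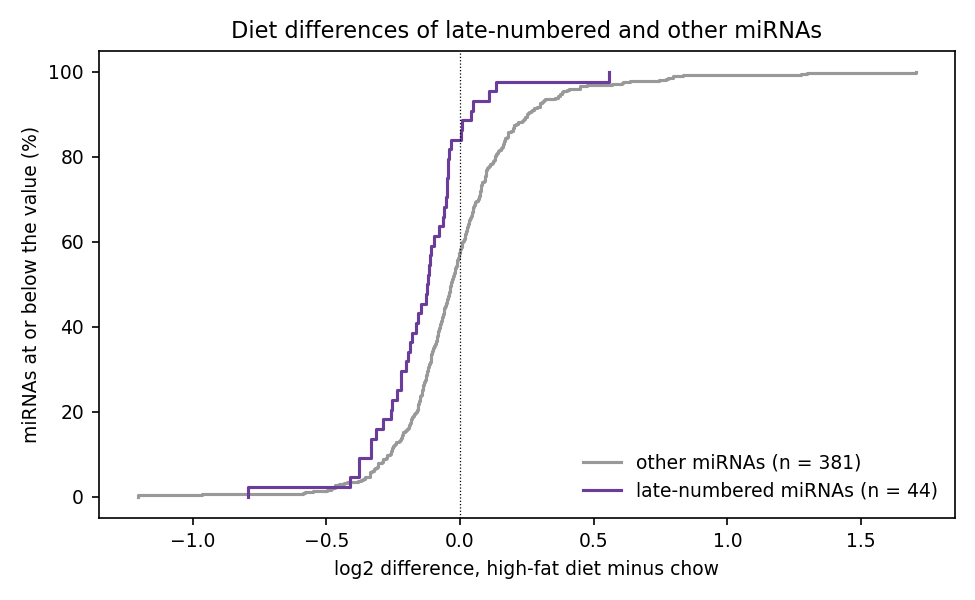
Cumulative share of miRNAs (vertical axis, %) by log2 difference of high-fat diet minus chow after scaling (horizontal axis), for 44 late-numbered miRNAs (purple) and 381 others (grey). The purple line reaches 84.1% and the grey line 58.0% at a difference of 0, and without scaling between arrays both lie mostly above 0.

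The smallest p among the 44 was that of miR-3084a-3p, at -1.03, -0.94 and -0.97 on chow against -1.29, -1.37 and -1.29 on high-fat diet. All high-fat arrays lay below all chow arrays, and the difference was -0.33 ± 0.09 (SE, limma adjusted p = 0.224), although without scaling it was 0.04. The 5p strand of the same hairpin had -3.84, -3.77 and -4.07 against -4.40, -4.13 and -4.29, also without overlap, a difference of -0.38 ± 0.12 (limma adjusted p = 0.298) that was -0.01 without scaling. The sequence of miR-3084c-5p is identical over 21 bases to miR-3084a-5p of the chromosome 6 locus but not to that of chromosome 19, and which of these the miR-3084a-5p probe reads is not known, so the probes may not be independent. miR-3084c-5p had a difference of -0.16 ± 0.13 (limma adjusted p = 0.659).

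miR-3573-5p had the widest difference of the 44. Its log2 signal was -2.39, -2.49 and -2.66 on chow against -3.10, -2.82 and -3.99 on high-fat diet, without overlap but with high-fat replicate 3 far below the other two. Its difference of -0.79 ± 0.28 was a 1.73-fold lower mean (limma adjusted p = 0.349), and was -0.45 without high-fat replicate 3 and -0.42 without scaling. miR-3573-3p had -0.97, -1.01 and -1.06 against -1.34, -1.43 and -1.14, a difference of -0.29 ± 0.11 (limma adjusted p = 0.392; 0.08 without scaling). miR-423-5p, which has the same first 10 bases as miR-3573-5p, lay at -1.77 ± 0.03 on chow and -1.68 ± 0.12 on high-fat diet (difference 0.08 ± 0.10, limma adjusted p = 0.773).

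A further 3 miRNAs had no overlap between diets. miR-6328 had -1.39, -1.40 and -1.53 against -1.68, -1.86 and -1.72, a difference of -0.31 ± 0.10 (limma adjusted p = 0.297; 0.06 without scaling). The dim miR-6316 had -4.99, -5.02 and -5.03 against -5.36, -5.21 and -5.23 (difference -0.25 ± 0.09, limma adjusted p = 0.379; 0.12 without scaling). miR-6315, in Vps51, named here after its values were seen, had -3.83, -3.96 and -4.09 against -4.18, -4.17 and -4.18 (difference -0.22 ± 0.10, limma adjusted p = 0.419; 0.15 without scaling).

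Positive differences were few and variable. The widest was that of miR-3588, with -3.26, -3.58 and -2.49 on chow against -3.26, -2.20 and -2.19 on high-fat diet. The diets overlapped, and limma gave a difference of 0.56 ± 0.36 with an adjusted p of 0.605. The difference became -0.15 without the 2 brightest arrays, which leaves high-fat replicate 1 alone on that diet. miR-3099 (0.13 ± 0.15), miR-3546 (0.11 ± 0.26), miR-6215 (0.05 ± 0.21) and miR-3585-5p (0.04 ± 0.12) had differences smaller than their standard errors, and all 4 turned negative without those 2 arrays or without a single array. miR-3551-3p and miR-3473 lay at 0.01 and 0.0048.

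Grouped by locus after the values were seen, 17 compared were placed within a protein-coding gene on the strand of that gene and opposite no other miRNA hairpin. Left out were miR-3102, miR-3559-5p, miR-6317 and miR-6333, which lie in protein-coding genes whose strand was not given. All of the 17 had a negative scaled difference, with a median of -0.20, but without scaling 3 of 17 did. They include miR-3562 and miR-3594-5p in Cep131, both strands of miR-3068, miR-3084a and miR-3573, and miR-3552 in the serotonin receptor gene Htr2c. They also include miR-3550 and miR-6330, for each of which a dimmer further probe, not detected on all arrays, had a positive difference. The 10 numbered 6300 and above were also all negative after scaling and none was without it. Of the 7 compared on the X chromosome 5 were negative (2 without scaling), and of the 5 opposite another hairpin 4 were (0 without scaling). These groups are descriptions, since they overlap and no test was made of them.

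A further 8 late-numbered miRNAs were detected on 2 high-fat arrays and on no chow array, and could not be compared. They were miR-3064-5p, miR-3541, both strands of miR-3558, miR-3561-3p, miR-3574, miR-3593-5p and miR-3596c. In every case the arrays were high-fat replicates 2 and 3, the brightest ones. Over the whole array 27 miRNAs (3.56%) had this pattern and 0 had the opposite one.

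The unscaled signal of miR-3596c was 0.54, 4.37 and 5.95 on chow against 6.95, 42.5 and 37.7 on high-fat diet. That of miR-3558-3p was 4.95, 3.60 and 5.85 against 5.64, 23.8 and 45.5, and that of miR-3064-5p was 4.12, 6.28 and 7.98 against 5.02, 15.9 and 18.0. In all 3 the first high-fat array was as dim as chow arrays or nearly so. Set against the lowest signal detected on each chow array, the high-fat mean was 1.81-fold for miR-3596c, 1.58-fold for miR-3558-3p and 1.02-fold for miR-3064-5p. In these means 1 of 3 high-fat arrays was not well above background and was raised to the floor, so the folds are not lower bounds. These miRNAs were also picked for detection on high-fat arrays only, which favours folds above 1. For the remaining 5 the fold was below 1 and is not given.

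**Figure D5:**
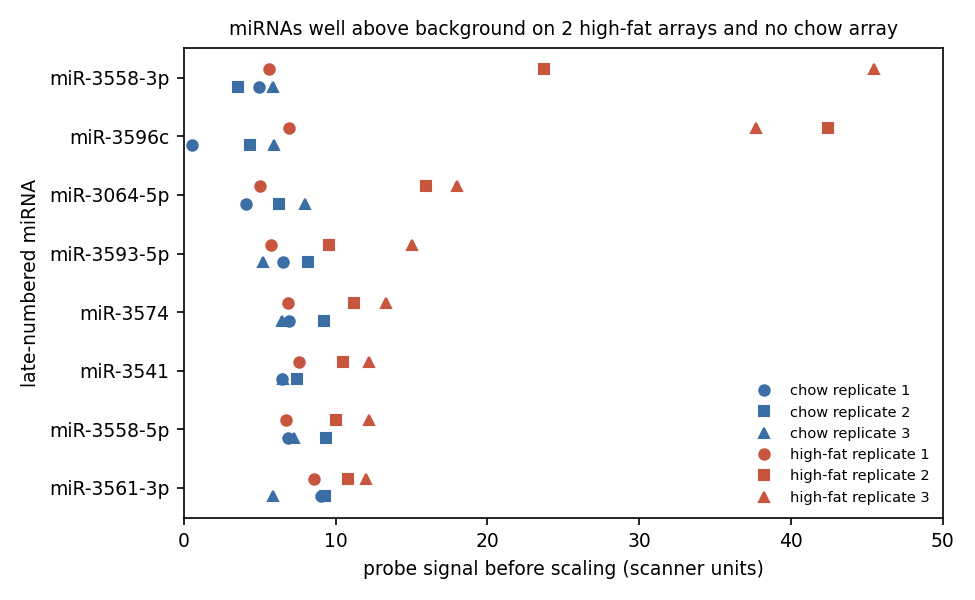
Probe signal before scaling (horizontal axis, scanner units) of the 8 late-numbered miRNAs detected on 2 high-fat arrays and no chow array, with 1 symbol per array. miR-3558-3p and miR-3596c reach 23.8 to 45.5 on high-fat replicates 2 and 3, while high-fat replicate 1 stays at 5.64 and 6.95.

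Sequence features were compared over the miRNAs with a RefSeq entry. The 42 late-numbered miRNAs in the comparison had a median GC content of 54.5%, against 45.8% in the 54 that missed it. Among the others the medians were 47.8% for 346 compared and 47.6% for 243 not compared. Within the 42, GC content and mean log2 signal had a Pearson correlation of 0.046 and a Spearman correlation of 0.0068, and within the 346 others compared these were -0.27 and -0.26. The points are different probes read on the same 6 arrays, whose brightness does not rank abundance. The part of base composition in detection was not tested.

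Late-numbered miRNAs rarely shared a seed with another miRNA of the array. Among those compared, 3 of 42 (7.14%) did, against 121 of 346 others (35%). The 3 were miR-3573-5p with miR-423-5p, and miR-3084a-5p and miR-3084c-5p with each other, which holds for the chromosome 6 sequence of miR-3084a-5p and not for that of chromosome 19. Among those that missed the comparison, miR-3596d shares its seed with the 3p strands of let-7a-1, let-7b, let-7f-1 and miR-98, miR-3065-5p with miR-7a-1-3p, and miR-3084c-3p with miR-192-3p, to which it is identical over its first 11 bases. None of these late-numbered strands was detected on any array.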

How the data were processed

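Agilent Feature Extraction 11.0.1.1, named in the submitters' processing notes and per the file headers, made the deposited intensity values, on a linear scale, with processed signals background-subtracted per array and not scaled between arrays. The series' log2 value table was quantile-normalised by the authors, as its deposited values show against the software's total signal, and served as an alternative. The labels do not describe that step. All 6 arrays were used, 3 per diet, which limits the precision.

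Control spots and spots flagged as outliers (9.07% to 9.42% per array) were left out, and spots of a probe (4 to 8 for the late-numbered miRNAs) were averaged. Scaling divided an array by its 75th percentile over the 757 of 1806 probes detected on all arrays, a floor (1st percentile of detected signals, log2 -5.82) replaced lower values, and the log2 followed. The brightest probe stood for each miRNA. Of the late-numbered miRNAs, 104 had 2 probes, 2 had 3 and 2 had 4. Of 34 further probes of the 44 compared that were on all arrays, 33 differed in the same direction. Further probes missing from some arrays are outside this count. Among them, those of miR-3546, miR-3551-3p and miR-6318 were on 1 array each and those of miR-3552 and miR-6327 on none. That of miR-3550, on 3 arrays, differed by 0.071 against -0.080 for the probe used. For miR-6330 it was on 2 arrays and differed by 0.10 against -0.048. The further probes of miR-3074, miR-3549, miR-3594-5p and miR-6316 had the direction of the probe used.

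The diet comparison used limma 3.58.1 under R 4.3.3 (lmFit, eBayes, Benjamini-Hochberg over 425 miRNAs, threshold 0.05), with no covariate, after a test on simulated data. Fold bounds set the mean of the brighter diet against the higher of the lowest detected signal and the probe's own signal on each array. Genes, loci and sequences came from RefSeq tables of GRCr8, and no coordinate of the array's own design was used. Seed and overlap were computed from these tables.

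Named were the 10 brightest, the 5 higher and 5 lower with the smallest p, hairpins with both strands on the array, those detected on 2 or more arrays of 1 diet only, the dimmest 2 and most variable 2, and miRNAs sharing a locus or seed. The late-numbered miRNAs, lists and rule were chosen with earlier results of these data known. Alternatives were other scalings, normexp (offset 50, on the median spot signal, since the mean signal was not used here), other probe summaries, filters, floors, blocks, and leaving out arrays.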

Additional observations from a re-analysis of the deposited data

How the results depend on the processing

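No late-numbered miRNA was called under any of the 21 other settings (lowest limma adjusted p 0.0636, with a floor 4 times higher). Of 545 recomputed differences of 26 named miRNAs, 485 kept their sign or were at 0. The number with diets that did not overlap, 7, was 15 with the 75th percentile over all probes, 1 (higher on high-fat diet) without scaling, 22 with normexp, 22 with the software total signal, 11 with the mean over probes, 4 with the higher floor, 25 within slide 1 and 21 without the 2 brightest high-fat arrays, and 8 to 19 when 1 array was left out. Among all 425 miRNAs compared, 45 were lower without overlap and 28 higher. These whole-array counts were 118 and 18 with normexp, 106 and 16 with the total signal, and 50 and 18 with the 75th percentile over all probes. They were 49 and 30 with the mean over probes and 32 and 22 with the higher floor. Without chow replicate 1 they were 52 and 42, without chow replicate 2 68 and 56, and without high-fat replicate 2 66 and 43. The rise with normexp and the total signal was thus not limited to the late-numbered miRNAs. Within slide 1 and without the 2 brightest arrays, 1 diet kept a single array, which makes non-overlap easier to reach, so these counts are not given. The median difference of the late-numbered miRNAs, -0.12, was 0.25 without scaling, -0.20 with normexp and -0.21 with the total signal. It was 0 with no filter on dim probes and -0.028 with the higher floor. Over the whole array the 2 calls were 5 without scaling, 8 with normexp, 1 with the mean over probes, 1 with outlier spots kept, 0 to 3 when 1 array was left out, and 0 with quantile normalisation, no filter, the higher floor, the authors' deposited table, the slide as a block, slide 1 alone, or without the 2 brightest arrays. The sign turned without scaling for miR-3065-3p (0.31), miR-3068-3p (0.33), miR-3068-5p (0.25), miR-3084a-3p (0.037), miR-3084c-5p (0.21), miR-3557-3p (0.26), miR-3559-5p (0.26), miR-3561-5p (0.23), miR-3562 (0.25), miR-3573-3p (0.080), miR-3580-3p (0.34), miR-3584-5p (0.21), miR-3593-3p (0.32), miR-3594-5p (0.19), miR-6316 (0.12) and miR-6328 (0.057), where the brighter high-fat arrays are no longer divided down. It also turned with normexp for miR-3099 (-0.036), miR-3473 (-0.027), miR-3546 (-0.11), miR-3551-3p (-0.19) and miR-3585-5p (-0.064), with the total signal for miR-3473 (-0.095), miR-3585-5p (-0.0020) and miR-6215 (-0.043), with quantile normalisation for miR-3068-3p (0.0047) and miR-3473 (-0.013), with the deposited table for miR-3473 (-0.015), and with outlier spots kept for miR-3580-3p (0.033). With the slide as a block, and likewise within slide 1, it turned for miR-3068-5p (0.056), miR-3473 (-0.24), miR-3551-3p (-0.14) and miR-3593-3p (0.052). Without the 2 brightest arrays it turned for miR-3068-3p (0.072), miR-3099 (-0.080), miR-3473 (-0.13), miR-3546 (-0.23), miR-3551-3p (-0.19), miR-3580-3p (0.013), miR-3588 (-0.15) and miR-6215 (-0.23). Leaving out 1 array gave ranges across 0 for miR-3099 (-0.0074 to 0.24), miR-3473 (-0.12 to 0.12), miR-3546 (-0.12 to 0.32), miR-3551-3p (-0.078 to 0.11), miR-3580-3p (-0.13 to 0.044), miR-3585-5p (-0.055 to 0.14), miR-3593-3p (-0.15 to 0.10) and miR-6215 (-0.12 to 0.20). Except where stated, the cause was not tested. Same-numbered samples deviated together at 0.219, -0.0124 and 0.0532, so the numbers were not taken as pairs. The replicate block, which in this balanced design cannot move a difference (median -0.12), gave 0 late-numbered calls and 3 over the whole array. The slide 1 comparison and the removal of the 2 brightest arrays were chosen after seeing the data. The detected count of 44 was 49 with any spot, 43 with all spots and 42 with all 6 arrays required, and 54 with 1 array enough. Signal over background limits what can be said of the 64 not compared.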
